A study of Mus musculus with 3 samples.

Results

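Expression of the human EGFR transgene (hsEGFR), of the recombinase that switches it on (iCre) and of the 4 mouse ERBB receptor genes (Egfr, Erbb2, Erbb3 and Erbb4) was measured in single cells of mouse glioblastomas. These 6 rows were taken by name from the 50262 rows of the count table. The tumors arose in adult Cdkn2a-/- mice that carried a conditional, Cre-activated transgene for wild-type human EGFR and a conditional luciferase reporter on a mixed background of Balb/cJ, SJL, C57Bl/6J, FVBN/J and 129S4. Cre reached the striatum by stereotactic injection of a lentivirus, so only infected cells and their progeny can recombine, and all cells of these mice lack Cdkn2a. The study made a virus for iCre alone and one for TGFa with iCre, and the sources used here do not give which one these animals received. Viable cells were sorted by CD45, the surface protein of leukocytes, and sequenced by inDrop, a droplet method that gives every captured mRNA a unique molecular identifier (UMI). There was 1 tumor sample per stage (early, medium and late), each sorted into CD45- and CD45+ cells and read in 4 technical libraries per sort. Per the study's methods, animals were pooled where cells were few, in the normal brain and Early samples. Those methods name no medium stage, so whether the medium tumor was pooled is not given. The stage called late here is labeled large in the deposited annotation. Normal brain was not analysed here.

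EGFR and its relatives are receptor tyrosine kinases that dimerize on binding ligands of the EGF and neuregulin families and signal through the RAS-MAPK and PI3K cascades. ERBB2 has no known ligand and ERBB3 has little kinase activity of its own, so both act mainly in pairs with another receptor. In the brain, EGFR is found in progenitors and astrocytes, ERBB3 in the oligodendrocyte and Schwann cell lineages and ERBB4 in interneurons. In this model the human receptor drives the tumor, and iCre is encoded by the virus.

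After filtering, 17781 of 20811 cells remained, with 1603 to 2725 CD45- cells and 2111 to 5091 CD45+ cells per tumor and medians of 1964 to 3078.5 UMIs per cell. Cells fell into 37 clusters, of which 32 carried a class name from marker genes and 5 did not. None of the 6 genes was used for clustering. Of 18335 cell barcodes, 740 occurred in more than 1 library of the same sequencing run. In all, hsEGFR had 20719 UMIs in 1542 cells, iCre 2179 in 957, Erbb3 2885 in 1281, Egfr 715 in 526, Erbb4 696 in 419 and Erbb2 181 in 123. The transgene for human TGFA, an EGFR ligand, had 3 UMIs. Cdkn2a had 20 UMIs, but tags from the 3′ end may lie outside the deleted part, so this does not check the genotype.

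In GRCm38, Egfr (ENSMUSG00000020122) lies on chromosome 11 from 16752203 to 16918158 on the plus strand, and Erbb2 (ENSMUSG00000062312) on the same chromosome and strand from 98412470 to 98437716. Erbb3 (ENSMUSG00000018166) lies on chromosome 10 from 128567523 to 128589652 and Erbb4 (ENSMUSG00000062209) on chromosome 1 from 68032186 to 69108059, both on the minus strand. Erbb2 overlaps Mien1 on the opposite strand, which had 3191 UMIs, and Egfr overlaps its antisense gene Egfros, which had 17. Whether strand was used in counting is not given in the sources used here, so the low Erbb2 counts are uncertain. Mouse Egfr and hsEGFR were separate rows, and how reads common to both were assigned is likewise not given.

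The transgene was first followed by stage and sort. In the CD45- sort hsEGFR stood at 7.28, 706 and 1219.8 UMIs per 1000000 UMIs (CPM) in the early, medium and late tumors. The 4 early CD45- libraries held 6.06, 0, 20.2 and 4.24 CPM. The medium ones held 699.5, 639, 823 and 700.9 CPM, and the late ones 1332, 1169.8, 1069.8 and 1377 CPM. Every library of a later stage was therefore above every library of the stage before it. These libraries are technical repeats of 1 sample per stage, so no test between stages was possible, and in summed counts more cells with the transgene and more transgene RNA per cell cannot be told apart.

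In the CD45+ sort hsEGFR stood at 1.85, 271 and 84.7 CPM from early to late, with library ranges of 0 to 6.26, 169.9 to 374 and 62.5 to 227 CPM. The medium tumor was thus the one with most transgene among CD45+ cells. iCre ran with it, at 84.9 and 129 CPM in medium and late CD45- cells against 21.9 and 7.80 CPM in the CD45+ cells. In the early tumor iCre had 2 UMIs in the CD45- and 3 in the CD45+ cells, at the limit of detection. Of the 79 early hsEGFR UMIs, 73 lay in 5 cells, which held between 5 and 22 UMIs each and came from 4 libraries. All 5 fell in cluster 10 (described below), of whose 593 cells 571 came from the late tumor. Whether these 5 cells belong to the early tumor was not tested. Of these 5 cells, 4 were among the 5% with the highest doublet scores of their library, and whether they are doublets was not tested. With the highest 5% of doublet scores removed, the early CD45- level of hsEGFR was 0.394 CPM in place of 7.28, below the 1.97 CPM of the CD45+ cells, and that of iCre 0. Leaving out 1 library gave 2.53 to 11.6 CPM of hsEGFR in the early CD45- and 0.252 to 3.04 CPM in the early CD45+ cells.

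**Figure D1:**
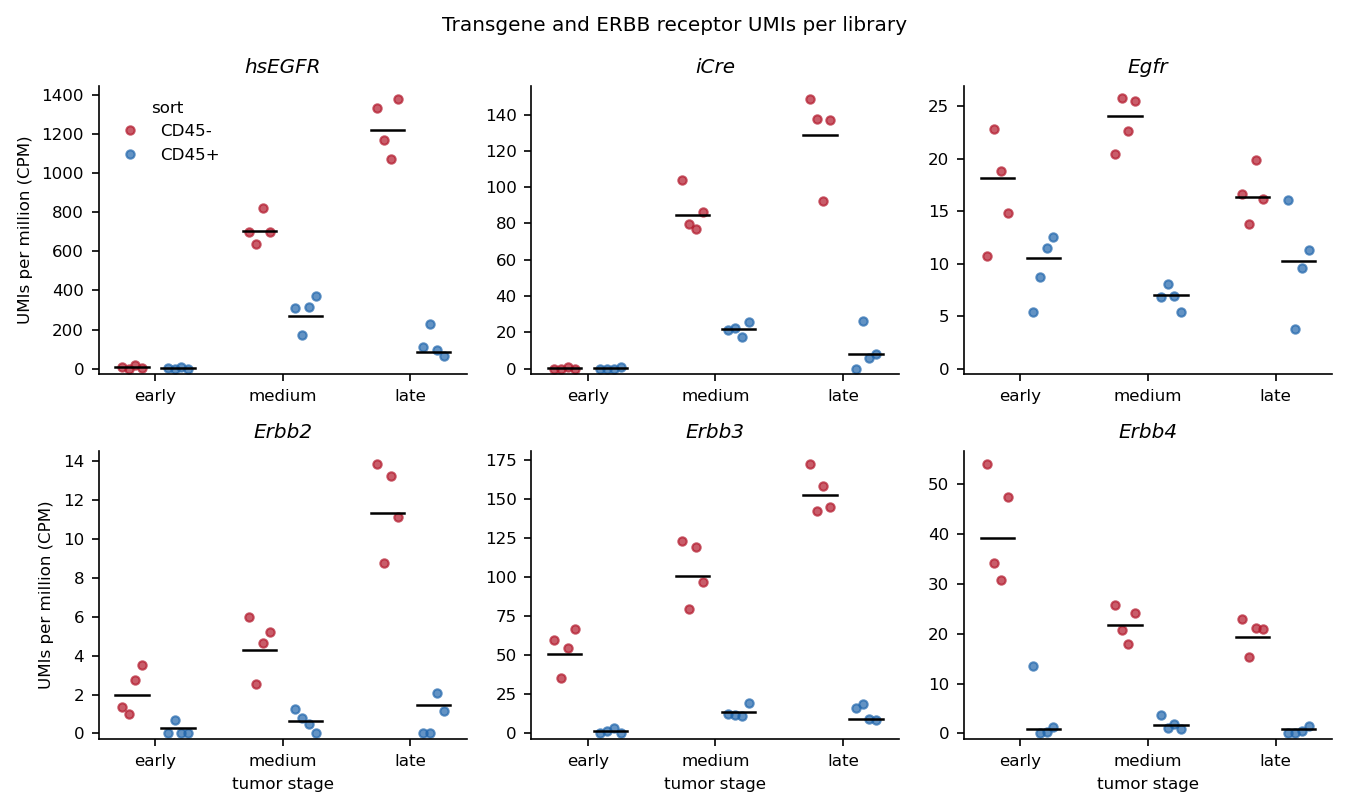
Level (CPM, vertical axis) of each gene in the 4 technical libraries (points) of each stage (horizontal axis) and sort (red, CD45-; blue, CD45+), with the level of the summed libraries as a black bar. The CD45- libraries span 0 to 20.2 CPM of hsEGFR for the early tumor, 639 to 823 for the medium one and 1069.8 to 1377 for the late one.

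UMIs of all 4 mouse receptors were found in every tumor and sort. Erbb3, the kinase-poor neuregulin receptor, stood at 50.6, 100.5 and 153 CPM in CD45- cells, from early to late, and at 1.67, 13.5 and 9.48 CPM in the CD45+ cells. Erbb4, the other neuregulin receptor, stood at 39.1, 21.8 and 19.4 CPM in the CD45- cells and at 0.925, 1.64 and 0.929 CPM in the CD45+ cells. For both, the lowest CD45- tumor was above the highest CD45+ tumor. The CD45+ levels rest on few UMIs, and leaving out 1 library moved the early level of Erbb4 (10 UMIs) to between 0.479 and 1.52 CPM, its late level (5 UMIs) as low as 0.367 and the early level of Erbb3 (18 UMIs) as low as 1.01.

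Erbb2, the receptor without a ligand, stood at 1.98, 4.27 and 11.3 CPM in the CD45- cells and at 0.278, 0.617 and 1.49 CPM in the CD45+ cells, with 3 to 8 UMIs behind each of the latter. Egfr, the mouse counterpart of the transgene, was the receptor with the smallest fold between the sorts, at 18.1, 24.1 and 16.3 CPM in the CD45- and 10.5, 6.99 and 10.2 CPM in the CD45+ cells. The early and late CD45- values of Egfr differed by less than the range of their libraries, 10.8 to 22.8 and 13.8 to 19.9 CPM.

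The sorts were compared over the 3 tumors with tumor as a block, to ask in which compartment each gene is transcribed. Of the 6 genes, 5 were lower in CD45+ cells and none was higher, where 46.1% of the 18433 genes tested were called, 25.7% as lower and 20.4% as higher. Erbb4 fell by 4.11 (SE 0.41) on the log2 scale with an adjusted p of 0.000305. Erbb3 fell by 3.48 (SE 0.41, adjusted p = 0.000729), Erbb2 by 2.46 (SE 0.40, adjusted p = 0.00225), iCre by 2.34 (SE 0.57, adjusted p = 0.0151) and hsEGFR by 2.05 (SE 0.53, adjusted p = 0.0183). Egfr had a log2 fold change of -0.71 (SE 0.28) and did not pass, with an adjusted p of 0.0773, although its CD45+ level was the lower one in 3 of 3 tumors. All adjusted p-values are two-sided, from edgeR's quasi-likelihood test with Benjamini-Hochberg adjustment over all genes tested, and the SE is that of the fit. The CD45+ level was lower in 3 of 3 tumors for all but iCre (2 of 3), and for hsEGFR the early tumor turned direction with the highest doublet scores removed. Without the block, hsEGFR and iCre lost the call (adjusted p = 0.396 and 0.273 with edgeR), and Erbb2, Erbb3 and Erbb4 kept it. hsEGFR also lost it without the early tumor (adjusted p = 0.0645) and with the highest doublet scores removed (0.263), and iCre without the late tumor (0.0596) and without a filter on low counts (0.0754).

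The other genes of the pathway were read from a list of 70, of which 66 could be tested. In the CD45+ cells 11 were higher and 16 lower, shares no larger than the 20.4% and 25.7% over all genes tested, with a median log2 fold change of -0.12 beside -0.04. Without TMM scaling (edgeR's correction of library sizes) the split of the list was 8 higher and 24 lower. In that fit 14% of all genes tested were called higher and 35.6% lower. Among 9 ligands, Areg (amphiregulin) was higher in CD45+ cells by 5.53 on the log2 scale (SE 0.52, edgeR adjusted p = 0.000240), and Tgfa and Nrg3 were lower. Of 4 genes of ligand release, the protease Adam17 and its partner Rhbdf2 were higher. Of 19 negative regulators, 6 were lower, among them Spry2, Spry4 and Lrig1, which restrain receptor signaling, and 1, the ubiquitin ligase Cbl, was higher. Of 9 targets, Etv1, Etv4 and Phlda1 were lower and Etv5 and Ier3 higher. Of 25 adaptors and kinases, 5 were higher, Grb2 and Gab2 among them, and 5 lower, led by the docking protein Gab1.

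The cells that held the transgene were then located. hsEGFR UMIs were found in more than 50% of the CD45- cells of a tumor (at least 20 cells) in 4 clusters, with 1734 of the 17781 cells, 94.8% of all hsEGFR UMIs and 94.5% of all iCre UMIs. This choice used the hsEGFR counts, so it is a description. Cluster 9 was led by Bmp4, Gpr17 and Bcas1, genes of committed oligodendrocyte progenitors, and cluster 24 by genes of mitosis such as Aspm, Kifc1 and Ccnb1. Cluster 14 was led by interferon-induced genes such as Ifi47 and Apobec3, and all its 369 cells came from the medium tumor. These 3 clusters expressed 10 to 12 of the 13 markers of glioma or oligodendrocyte progenitor (OPC) cells. Cluster 10 was led by Itga8, Thbs2, Tinagl1 and Tnc, genes of the extracellular matrix and its receptors, met no marker rule and stayed unnamed, and 571 of its 593 cells came from the late tumor. Clusters 10 and 14 may each belong to 1 tumor rather than to 1 cell type.

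In the CD45- sort, hsEGFR stood at 1933 and 2838 CPM in the medium and late cells of cluster 9, at 1719 and 2430.3 CPM in those of cluster 24, at 2035 CPM in cluster 14 and at 1355 CPM in cluster 10. Cells with at least 1 hsEGFR UMI were 77.0% and 79.6% of cluster 9, 90.9% and 90.6% of cluster 24, 87.8% of cluster 14 and 88.9% of cluster 10. The 4 late libraries gave 2389.5 to 3236 CPM in cluster 9 and 1217 to 1459.7 CPM in cluster 10, so the clusters did not overlap. The medium libraries of cluster 9 ran from 1170 to 3511 CPM, and without the library T28B, which held 32 of its 74 medium cells, the medium level was 3238 CPM, above the late one. No order of the medium and late cells of cluster 9 could thus be read. iCre did not follow the order of the clusters. It stood between 102.6 and 259 CPM in the late libraries of cluster 9 and between 158 and 239 CPM in those of cluster 10, which overlapped.

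The remaining cluster of the glioma or OPC-like class, cluster 17, expressed 12 of the 13 markers and was led by C1ql2, Hes5 and Pdgfra, genes of resting OPCs, but few of its cells had the transgene. An hsEGFR UMI was found in 0 of 126 early and 0 of 82 medium CD45- cells of this cluster, which allows shares of cells with a UMI of up to 2.38% and 3.66%, and in 12.9% of 62 late cells (95% exact binomial interval 5.74 to 23.9%). The late cells held 100 hsEGFR UMIs, a level of 568 CPM, of which 1 cell held 47 and another 32. Over the whole class, 0 of 174 early cells had an hsEGFR UMI, which allows up to 1.72% of cells with a UMI, against 69.5% of 433 medium cells (64.9 to 73.8%) and 75.1% of 606 late cells (71.4 to 78.5%). In the 386 medium and 484 late cells with at least 1500 UMIs, thinned to that depth, the shares were 58.8% and 78.3%. Shallower cells were left out there, so these shares are not of the same cells. In oligodendrocyte-like cells, taken as the background although infected ones could carry the transgene, an hsEGFR UMI was found in 0.0726%, 1.51% and 2.01% of early, medium and late cells at a median depth of 2260 to 2934 UMIs, where the class had 2412.5 to 5192. iCre was in 45.3% and 39.8% of the medium and late class and in 0.454% and 0.287% of the oligodendrocyte-like cells. In thinned cells these shares were 22.0% and 20.5% against 0.165% and 0%.

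**Figure D2:**
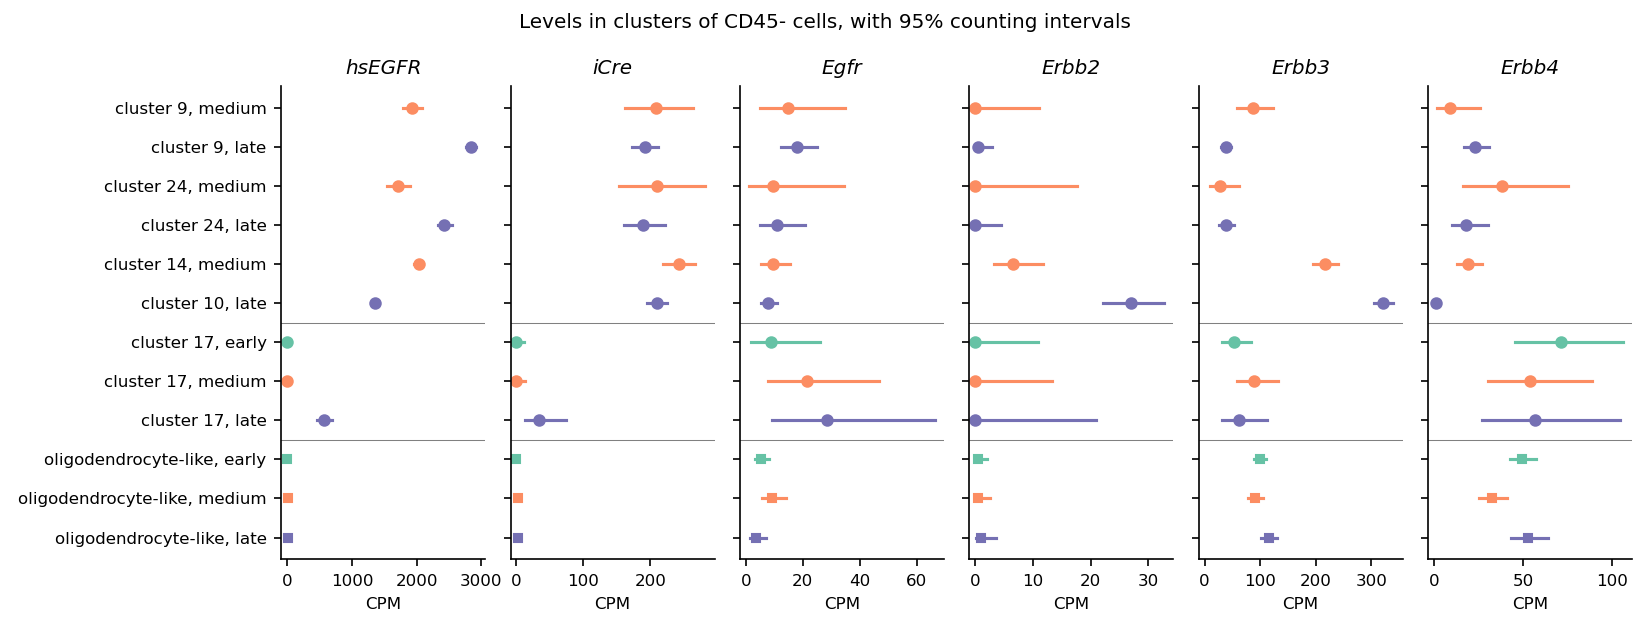
Level (horizontal axis, CPM) of each gene in the 4 transgene-bearing clusters (9, 24, 14 and 10), in cluster 17 and in oligodendrocyte-like cells (squares) of the CD45- sort, colored by tumor, with 95% Poisson intervals as lines. Erbb3 reaches 217 CPM in cluster 14 and 322 in cluster 10, and Erbb2 27.0 CPM in cluster 10, while Egfr lies between 7.65 and 17.8 CPM in those bearing clusters of the medium and late tumors that had at least 20 cells.

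The mouse receptors differed among the transgene-bearing clusters. Erbb3 stood at 322 CPM in cluster 10 (95% Poisson interval 304 to 340) and at 217 CPM in cluster 14 (195 to 240.2). Cells of cluster 9 held 86.4 CPM (medium) and 37.8 CPM (late), those of cluster 24 held 28.6 and 37.7 (19.9 in the late cells without library T24B, which held 20 of the 31 UMIs, and 13.4 in the medium ones without T28C), and those of cluster 17 held 53.4, 89.7 and 62.5 CPM, from early to late. The late libraries gave 285 to 374 CPM in cluster 10 and 19.8 to 70.7 in cluster 9, without overlap. Cluster 10 held 78.1% of the late CD45- Erbb3 UMIs and 37.0% of all UMIs of those cells. Most of the late Erbb3 message thus came from this cluster.

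Erbb2 lay mostly in the same cells, with 106 of the 120 late CD45- UMIs (88.3%) in cluster 10. Its late libraries gave 19.6 to 33.7 CPM there and 0 to 2.28 CPM in cluster 9, and no Erbb2 UMI was found in 127 late cells of cluster 24. Erbb4 went the other way, at 1.02 CPM (4 UMIs) in cluster 10, or 0.623 without library T24D. It stood at 8.94 (3 UMIs, 16.2 without T28B) and 23.1 CPM in the medium and late cells of cluster 9. Cluster 14 held 19.1 and cluster 17 53.8 to 71.1 CPM. Mouse Egfr stood at 7.65 CPM in cluster 10, 9.55 in cluster 14, 14.9 and 17.8 in the medium and late cells of cluster 9, 9.55 and 10.9 in those of cluster 24 and 8.89 to 28.4 in cluster 17. The late libraries gave 4.22 to 9.46 CPM in cluster 10 and 12.99 to 25.1 in cluster 9, without overlap. In the medium and late tumors, the Poisson interval of Egfr in each of the 4 bearing clusters overlapped with those of cluster 17, few cells of which held hsEGFR. The early tumor had few cells of these clusters, and no hsEGFR or iCre UMI was found in its CD45- cells of clusters 9 and 24. There were 4 Egfr UMIs in 40 early cells of cluster 9 (41.9 CPM, interval 11.4 to 107) and 9 UMIs in 8 cells of cluster 24. Early cluster 17 stood at 8.89 CPM with 3 UMIs. At these counts single libraries decided several Egfr levels. Without library T04C early cluster 9 stood at 15.7 CPM, without T28B medium cluster 9 at 24.2, without T28D medium cluster 24 at 14.6 and without T24B late cluster 24 at 7.22. The early, medium and late levels of cluster 17 were 4.66 CPM without T04B, 13.9 without T28D and 6.79 without T24A (45.4 without T24C).

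The ligands expressed beside the receptors differed as well. Tgfa stood at 389 CPM in the late cells of cluster 9 and at 2.80 CPM in those of cluster 10. In cluster 14 it stood at 121 CPM, in cluster 17 at 194 to 329 CPM and in oligodendrocyte-like cells at 183 to 234.5 CPM. Hbegf, which binds EGFR and ERBB4, was instead higher in cluster 10 than in late cluster 9. It stood at 285 CPM in cluster 10, 244 in cluster 14, 55.6 in late cluster 9 and 2.18 to 7.98 in oligodendrocyte-like cells. Dusp6, a phosphatase induced by ERK that switches it off, stood at 519.7 CPM in cluster 10 against 86.5 in late cluster 9. The cell cycle gene Ccnd1 stood at 1668 against 413 CPM in the same clusters. Clusters were defined on these cells, so none of these differences was tested.

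Levels in the marker-defined classes were ordered by their mean over the 3 tumors, with both sorts pooled. Egfr was highest in fibroblast-like cells, at 173 ± 54.0 CPM (SD, n = 3), with 169, 229 and 122 CPM from early to late, and next in astrocyte-like cells, at 117 ± 55.1. These overlapped with each other, and astrocyte-like cells also with mural cell-like cells (51.0 ± 54.1), which ranged from 0 to 107.7 CPM. Neuron-like cells followed at 42.0 ± 6.97 CPM, and their range, 35.0 to 48.9, did not overlap with that of the glioma or OPC-like class, 10.1 to 34.0. In the CD45- sort, fibroblast-like cells held 37.4%, 48.1% and 16.8% of the Egfr UMIs from early to late, with 4.04%, 4.53% and 2.21% of all UMIs. In the late tumor neuron-like cells held 17.9% and the 4 transgene-bearing clusters 42.2% of them, the latter with 62.8% of all UMIs. Microglia-like cells held 9.73 ± 0.98 CPM, and macrophage or monocyte-like cells 9.22 ± 2.41.

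Of these named classes, Erbb3 was highest in oligodendrocyte-like cells, at 99.3, 91.3 and 115 CPM (102 ± 11.8, SD, n = 3). The glioma or OPC-like class followed at 56.0, 175 and 38.5 CPM, and the ranges overlapped. The unnamed cluster 10, not in this order, stood higher, at 322 CPM in the late CD45- cells. The means of the leukocyte classes found in all 3 tumors ran from 0 to 0.826 CPM. Erbb4 had no clear leader. Neuron-like cells held 150, 5.00 and 21.1 CPM, oligodendrocyte-like cells 48.5, 32.4 and 52.4, the glioma or OPC-like class 66.02, 24.2 and 24.6, and astrocyte-like cells 26.9, 11.7 and 65.3. The next class, choroid plexus-like cells, overlapped with astrocyte-like cells, at 4.46 to 12.5 CPM. Erbb2 was at or below 35.9 CPM in every class of every tumor except late astrocyte-like cells, where 3 UMIs gave 65.3 CPM, and its order could not be read.

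**Figure D3:**
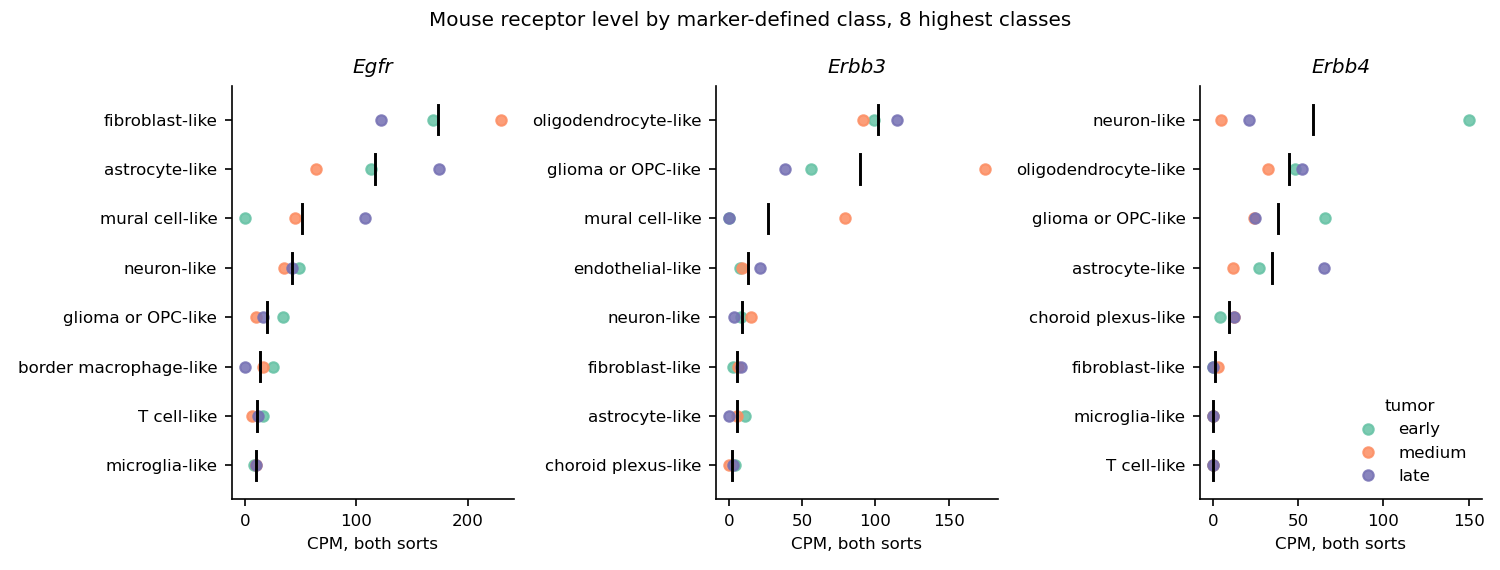
Levels (horizontal axis, CPM) of Egfr, Erbb3 and Erbb4 in the 8 classes with the highest means (vertical axis), with 1 point per tumor and the mean of the 3 tumors as a black bar. Fibroblast-like cells lead for Egfr at 173 CPM, oligodendrocyte-like cells for Erbb3 at 102 CPM, and for Erbb4 the early neuron-like cells stand apart at 150 CPM.

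The glioma or OPC-like class was compared with oligodendrocyte-like cells, the mature cells of its lineage, over the 3 tumors in the CD45- sort. The numbers of cells were 174, 433 and 606 against 1377, 661 and 696. Of the 4 genes that passed the filter on low counts, 1 was called higher and 1 lower, where 33.8% of the 13429 genes tested were called, 16.9% in each direction. hsEGFR stood at 0, 1768 and 2585 CPM against 0.273, 18.6 and 9.48 CPM, a log2 fold change of 6.68 (SE 0.74, edgeR adjusted p = 0.000227). In the early tumor this rests on 0 against 1 UMI. With clusters 9, 14 and 24 left out, so that only cluster 17 remained, it was 2.73 (edgeR adjusted p = 0.272). The call was also lost without the tumor block (adjusted p = 0.0788).

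Egfr was higher in the class in 3 of 3 tumors, at 34.9, 11.6 and 16.5 CPM against 5.18, 9.08 and 3.49, but did not pass (log2 fold change 1.18, SE 0.50, edgeR adjusted p = 0.105). Of its early UMIs in the class, 9 lay in 8 cells of cluster 24, 4 in cluster 9 and 3 in the 126 cells of cluster 17. Erbb3 stood at 54.6, 169 and 39.2 CPM against 99.0, 91.2 and 115, lower in the early and late and higher in the medium tumor. The class was made up of different clusters in each tumor, with 126 of 174 early cells in cluster 17, 255 of 433 medium cells in cluster 14, which held 363 of the 659 Erbb3 UMIs of all medium CD45- cells, and 417 of 606 late cells in cluster 9. Over the 3 tumors Erbb3 did not pass (log2 fold change -1.01, SE 0.47, edgeR adjusted p = 0.140). Without the medium tumor both passed, Egfr with 1.95 (edgeR adjusted p = 0.0112) and Erbb3 with -1.78 (edgeR adjusted p = 0.000266). Erbb4 stood at 69.8, 23.2 and 23.8 CPM against 49.6, 32.7 and 52.9, and its fall by 0.94 on the log2 scale (SE 0.31, edgeR adjusted p = 0.0465) was lost under 8 of the alternatives run, among them DESeq2 (0.146), no tumor block (0.0939), the fit without the medium tumor (0.0990) and that without the late tumor (0.359). iCre and Erbb2 did not pass the filter, and no test of them is given. iCre had no UMI in either early group and 5 and 3 UMIs in the medium and late oligodendrocyte-like cells.

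The rest of the pathway was read in the same comparison. Of 59 listed genes tested, 20 were higher and 8 lower in the glioma or OPC-like class, where 16.9% of all genes were called in each direction. Of 9 targets, 8 were higher and 1 lower, with a median log2 fold change of 3.63 beside -0.00 over all genes. The ETS factor Etv4 stood at 89.5, 44.8 and 52.3 CPM against 0.273, 0.454 and 0.499 CPM with 1 UMI each (log2 fold change 6.65, SE 0.47, edgeR adjusted p = 3.56e-05). Ccnd1 was higher by 6.64 (SE 0.53, edgeR adjusted p = 5.48e-05), Etv5 by 3.88 (SE 0.35, edgeR adjusted p = 8.89e-05) and Ier3 by 4.49 (SE 0.45, edgeR adjusted p = 0.000155), while Etv1 was lower. Of 18 negative regulators, Spry4, Spry1, Dusp6, Spred2 and Spry2 were higher and Errfi1, a feedback inhibitor of EGFR, was lower. Of 4 ligands, Hbegf was higher, and of 3 genes of ligand release, the pseudoprotease Rhbdf1. Among 25 adaptors and kinases, 5 were higher, led by Src, and 6 lower, led by Mapk3. In the early cells of the class, where no hsEGFR UMI was found, Etv5 stood at 288 and Ccnd1 at 441 CPM against 7.36 and 3.27 CPM in oligodendrocyte-like cells. With clusters 9, 14 and 24 left out, the targets again gave 8 higher and 1 lower.

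The transgene was next related to the other genes cell by cell. A cell of cluster 9 with hsEGFR held up to 87 UMIs in the late tumor, one of cluster 10 up to 67, and 1 cell of cluster 14 held 421. Of the late CD45- cells with iCre, 97.1% in cluster 9, 94.8% in cluster 10 and 98.4% in cluster 24 also held hsEGFR. With or without iCre, it was 332 of 417, 473 of 532 and 115 of 127 cells. In the medium CD45- cells with iCre it was 87.5% in cluster 9, 93.75% in cluster 24 and 93.6% in cluster 14. Of all medium CD45- cells of these clusters it was 57 of 74, 20 of 22 and 224 of 255. In the CD45+ cells with iCre of clusters 9, 10 and 14 it was 86.0% to 88.9%. In medium cluster 14 of that sort it was 43 of 50 cells with iCre, beside 98 of 114 in all. In medium cluster 9 it was 13 of 15 beside 34 of 38. Late CD45+ cells gave 8 of 9 beside 18 of 25 in cluster 9 and 13 of 15 beside 32 of 39 in cluster 10. In the late CD45- cells, the ratio of hsEGFR to iCre UMIs was 14.8 in cluster 9 (95% counting interval 13.3 to 16.5), 12.8 in cluster 24 (10.9 to 15.2) and 6.46 in cluster 10 (6.01 to 6.97). In the medium CD45- cells it was 9.27 in cluster 9 (7.24 to 12.04), 8.18 in cluster 24 (5.97 to 11.5) and 8.40 in cluster 14 (7.57 to 9.33), with overlapping intervals. By library, the late ratios were 11.7 to 23.3 in cluster 9 and 6.10 to 7.68 in cluster 10, without overlap, while the medium ratios of cluster 9, 6.05 to 20.9, overlapped with its late ones and gave 13.8 in all without library T28B. The CD45+ cells of cluster 14 gave 13.1 (10.6 to 16.4). Capture of these 2 messages may differ, so the ratio does not count molecules in the cell.

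Within a cluster, cells were thinned to 1500 UMIs and grouped by their hsEGFR UMIs (0, 1 to 2, 3 or more), and levels were then taken from all their UMIs. In cluster 10, Erbb3 stood at 266 (95% Poisson interval 234 to 301), 325 (298 to 353) and 365 CPM (332 to 401), the highest group outside the interval of the lowest. In cluster 14 the order was the reverse, at 254 (209.7 to 306), 243 (204 to 287) and 164 CPM (134 to 199). In cluster 9 it stood at 53.0, 42.2 and 32.1 CPM with overlapping intervals. Egfr stood at 8.38, 8.79 and 5.78 CPM in cluster 10, at 15.8, 3.50 and 10.8 in cluster 14 and at 26.5, 14.1 and 11.5 in cluster 9, with 2 to 15 UMIs behind each value and overlapping intervals throughout. iCre stood at 86.1 (45.9 to 147), 197 (157 to 244) and 209.8 CPM (185 to 237) in cluster 9, and at 227, 201.5 and 209.9 CPM with overlapping intervals in cluster 10. Only in cluster 9, of these 2, did the group with 0 hsEGFR UMIs after thinning lie outside the intervals of the others. Cells of this group can hold hsEGFR at full depth. In cluster 10 it had 125 cells, although 473 of the 532 late CD45- cells held an hsEGFR UMI before thinning. In cluster 9 it had 45 cells, with 332 of 417 holding one. The contrast is thus not one of cells with and without the transgene. The cluster 9 groups also differed in depth, with medians of 2609, 5346 and 5129 UMIs per cell against 6396, 7905 and 6176 in cluster 10, and the part of depth in this result was not tested.

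**Figure D4:**
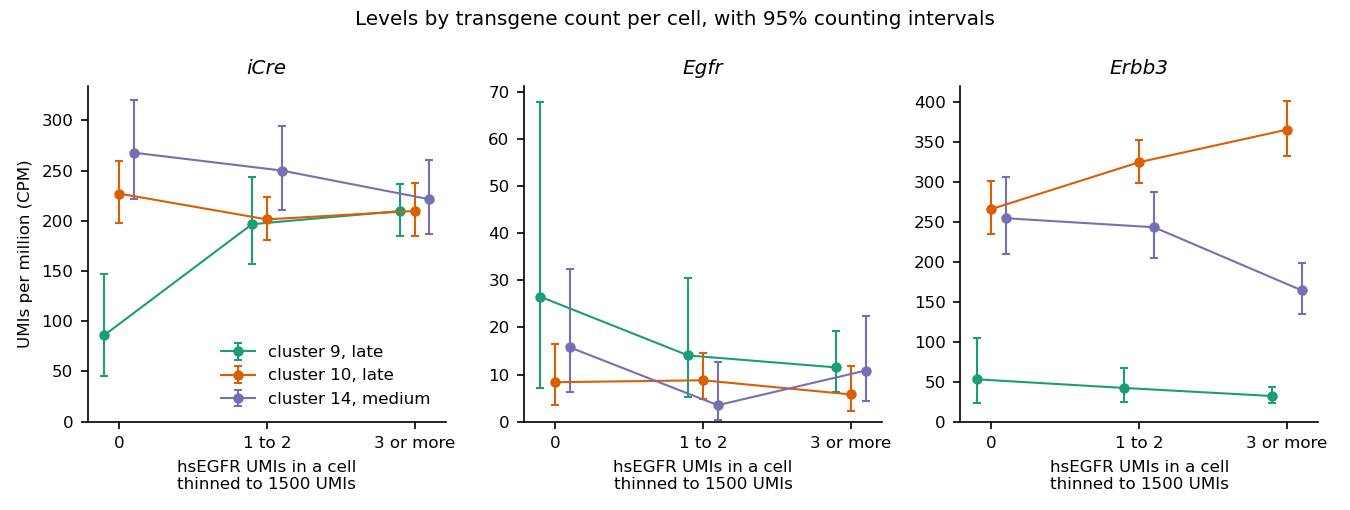
Levels (vertical axis, CPM, with 95% Poisson intervals) of iCre, Egfr and Erbb3 in CD45- cells of clusters 9 and 10 of the late tumor and cluster 14 of the medium tumor, grouped by the hsEGFR UMIs left in each cell after thinning to 1500 UMIs (horizontal axis). Erbb3 goes from 266 to 365 CPM in cluster 10 and from 254 to 164 CPM in cluster 14.

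Across single cells the relations were weak. The Pearson correlation of log-scaled hsEGFR with Erbb3 was 0.10 over 490 cells of cluster 10, -0.09 over 243 cells of cluster 14 and -0.03 over 317 cells of cluster 9. With Egfr it was -0.00 in cluster 10 and -0.06 in cluster 9, and with Erbb2 0.05 in cluster 10. With iCre it was 0.26 in cluster 9, 0.23 over 118 cells of cluster 24, 0.09 in cluster 14 and 0.03 in cluster 10. In thinned cells the correlation with iCre was 0.15 in cluster 9, -0.06 in cluster 24, -0.06 in cluster 14 and -0.03 in cluster 10. The points are cells of 1 tumor that share libraries and differ in depth, and at these counts values of this size are no finding.

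Cells of the glioma or OPC-like class with at least 1 hsEGFR UMI were compared with those with none, within the medium and the late tumor. The early tumor had no positive cell. There were 301 positive and 132 negative cells in the medium tumor and 455 and 151 in the late tumor, and the positive cells were deeper, with 2072741 against 426385 UMIs in all and 2571103 against 333887. Of the 4 genes tested besides hsEGFR, 1 was higher and none lower, where 9.09% of 12449 genes were called, 5.18% as higher and 3.9% as lower. iCre stood at 237 and 202 CPM in positive and at 68.0 and 20.97 CPM in negative cells of the medium and late tumors, a rise of 2.49 on the log2 scale (SE 0.32, edgeR adjusted p = 3.39e-12). This call was lost without the tumor block (adjusted p = 0.191), in thinned cells (0.170) and without cluster 17 (0.683).

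No mouse receptor passed this comparison, in which only 8.51% of simulated 2-fold changes were recovered. Egfr stood at 9.65 and 11.3 CPM in positive and 21.1 and 56.9 CPM in negative cells, lower in 2 of 2 tumors (log2 fold change -1.64, SE 0.60, edgeR adjusted p = 0.0631), with 9 and 19 UMIs in the negative cells. Erbb3 stood at 179 and 38.1 CPM in positive and 119.6 and 47.9 CPM in negative cells (log2 fold change 0.40, SE 0.33, edgeR adjusted p = 0.542). Erbb4 stood at 20.7 and 22.9 CPM against 35.2 and 30.0 CPM (log2 fold change -0.43, SE 0.54, edgeR adjusted p = 0.733). Erbb2 had 11 UMIs in positive and 1 in negative cells and did not pass the filter. When cluster 10 was added to the class, an alternative chosen after its values were seen, Erbb3 stood at 182 and 206 CPM in positive against 116 and 142 CPM in negative cells (log2 fold change 0.71, SE 0.25, edgeR adjusted p = 0.0483).

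Of the 59 pathway genes tested here, 1 was higher and 3 were lower, a share below the 9.09% called over all genes. No gene of the list was called with DESeq2, without the tumor block, in thinned cells or without cluster 17, so the calls named next were all lost under these 4 alternatives. Myc, a growth factor target, stood at 105.7 and 157 CPM in positive and 44.6 and 35.9 CPM in negative cells (log2 fold change 1.81, SE 0.35, edgeR adjusted p = 3.41e-05). Etv5 (log2 fold change -1.54, SE 0.27, edgeR adjusted p = 1.87e-06), Etv4 and the exchange factor Sos1 were lower. The median over the list was 0.04, as over all genes. Without cluster 17, which gave 82 of the 132 medium negative cells, 5 of 11747 genes were called in place of 1131.

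**Figure D5:**
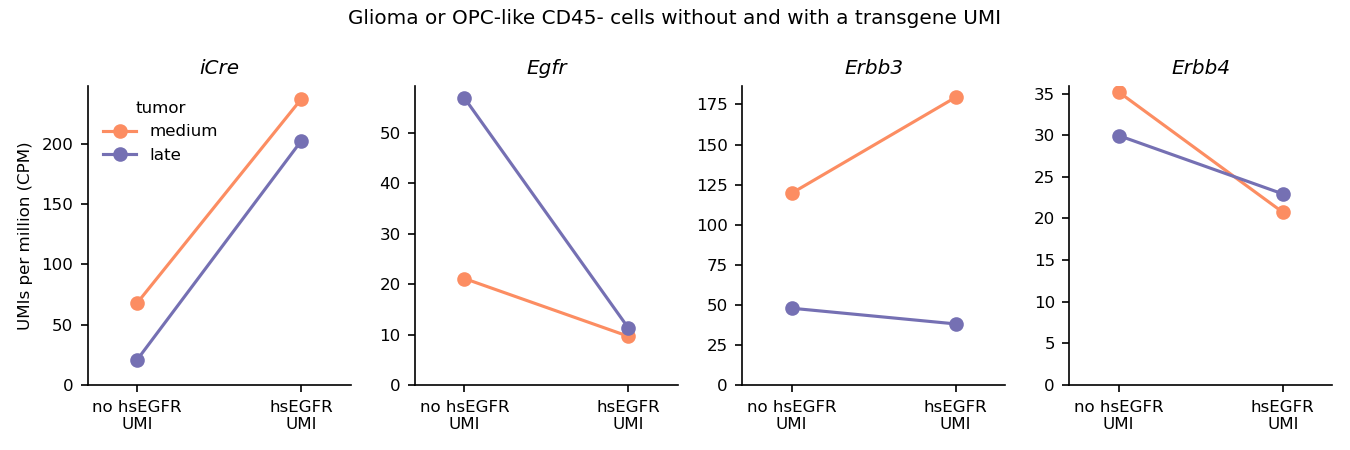
Levels (vertical axis, CPM) of iCre, Egfr, Erbb3 and Erbb4 in CD45- glioma or OPC-like cells without and with an hsEGFR UMI, with 1 line for each of the 2 tumors. iCre is higher in positive cells of both tumors, Egfr is lower in both, and Erbb3 differs in direction between the medium and the late tumor.

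Cells of the transgene-bearing clusters were also found in the leukocyte sort. The 4 clusters made up 0.0786% of the early, 4.34% of the medium (173 cells) and 3.22% of the late (68 cells) CD45+ cells. Not all of these held an hsEGFR UMI. In the medium CD45+ sort 34 of 38 cells of cluster 9 and 98 of 114 of cluster 14 did. In the late one it was 18 of 25 cells of cluster 9 and 32 of 39 of cluster 10. Of the 4 early CD45+ cells with hsEGFR, 3 lay outside these clusters. Ptprc, which encodes CD45, had a UMI in 2.31% of the medium and 5.88% of the late ones, against 2.22% and 1.12% of the cells of these clusters in the CD45- sort. In CD45+ microglia-like cells it was 16.4% and 22.2%, at lower depth (1737.5 and 1813 UMIs per cell against 2623 and 3149). With these cells left out of the CD45+ sort alone, the log2 fold change of hsEGFR between the sorts was -5.00 in place of -2.05, and that of iCre -4.03. Leaving out clusters chosen for their hsEGFR widens these differences by construction, so they are a description.

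Outside the 4 clusters, 109 of 16047 cells held hsEGFR. Of these, 18 held 10 or more UMIs. There were 6 in the interferon-marked macrophage or monocyte-like cluster 6 of the medium CD45+ sort, with 17 to 207 UMIs each. They held 533 hsEGFR UMIs against 7 of iCre and no Ptprc UMI. Each held 0 to 25 UMIs of macrophage or monocyte markers and 1 to 17 UMIs of glioma or OPC markers. Their class name is that of the cluster. A neutrophil-like cell held 116 hsEGFR UMIs beside 1092 UMIs of neutrophil and 68 of glioma or OPC markers, and had a doublet score of 0.268. iCre without hsEGFR was seen in 48 of the 58 iCre-positive medium CD45+ cells outside the 4 clusters, while in the medium CD45- cells it was 5 of 13. With both sorts pooled, 25 of 611 medium cells of the unnamed cluster 4 and 14 of 135 of the unnamed cluster 26 held iCre. The source of this iCre was not tested.

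The genes whose level was most like that of each member were taken over 47 sums of cells by class and tumor, which share libraries, among 14677 genes. For hsEGFR these were iCre (Pearson r = 0.82), Dhh (0.65), a hedgehog ligand, Klk10 (0.60), Fabp7 (0.59), a lipid carrier of neural progenitors, and Gap43 (0.58). Over 78 sums by cluster and tumor they were iCre (0.80), Fabp7 (0.73), Foxd3 (0.73), Col11a1 (0.70) and Moxd1 (0.69), so of the 5 genes only iCre and Fabp7 were shared. For iCre they were hsEGFR (0.82), Dhh (0.72), Klk10 (0.69), Gm12606 (0.64) and Fabp7 (0.61). Egfr was most like Scara3 (0.75), Mical2 (0.70), Col1a1 (0.69), Rgs7bp (0.68) and the cadherin Cdh11 (0.68), of which Col1a1 encodes fibrillar collagen. Erbb3 was most like Sox10 (0.82), the factor of the oligodendrocyte and Schwann cell lineages, Itgb4 (0.82), Kcna1 (0.81), Gal3st1 (0.79) and Pllp (0.79). Erbb4 was most like Brsk2 (0.91), Cadm2 (0.88), Nap1l5 (0.88), Elovl4 (0.88) and Scg5 (0.88). Erbb2 had fewer than 200 UMIs and was not ranked. No mouse receptor was among the 5 genes most like the transgene, but absence from so short a list among 14677 genes says little about their relation.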

How the data were processed

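Per the study's methods, the authors mapped inDrop reads with RapMap in bcbio-nextgen to the GRCm38 transcriptome of Ensembl release 94, and the submitters' processing notes name mm10. The authors deposited unnormalized UMI counts (genes by cells, with rows for 3 transgenes), and a deposited annotation (other: text, no measurement) gives run, sort and stage of each library. Removal of ambient RNA and doublets is described, but not whether it preceded deposit.

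Cells with at least 500 UMIs, at least 500 genes and at most 20% mitochondrial UMIs were kept. Scrublet (scanpy 1.11.5) called 113 of 17786 cells doublets (0.635%), which were removed. Such a low rate means that doublets may remain. Cells were clustered with Leiden (leidenalg 0.10.2) and named where at least 3 markers of a class were 2-fold higher and present in at least 10% of cells. Class names rest on RNA markers alone and end in "-like". Counts were summed per tumor and group and tested with edgeR 4.0.16 (R 4.3.3; TMM, filterByExpr, robust quasi-likelihood fit, tumor as block, Benjamini-Hochberg threshold 0.05). The comparisons were CD45+ against CD45- cells, the glioma or OPC-like class against oligodendrocyte-like cells (at least 20 cells per group) and its hsEGFR-positive against negative cells (at least 10). The sorts and classes had 2 residual degrees of freedom, and positive against negative cells, from 2 tumors, had 1. Sorts of the same tumor deviated together (correlations over genes 0.384, 0.280 and 0.302). For the classes the correlations were 0.0916, 0.167 and 0.137. Both come from the same tumor sample, so the block was kept. Cells are not replicates, and p-values rest on 3 tumors of different stages (2 for positive against negative cells), with the spread of each gene estimated with help from all others. Sums have exact Poisson and shares exact Clopper-Pearson 95% intervals. These hold counting error alone, and a count of 0 allows 3 counts. CPM was not divided by gene length, because tags come from the 3′ end. Likeness used log2(CPM + 1) over sums of at least 20 cells, for genes with at least 200 UMIs.

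Genes named are the 6 members, at most 4 per group of the pathway list (smallest adjusted p first; a few more are named without values), and the 5 most alike. The members and lists were chosen with earlier results of these data known. Alternatives were DESeq2 1.42.0, no TMM, no filter, no block, each tumor or library left out, other cell filters and classes. On simulated data, 2-fold changes were recovered in 20% of cases between sorts, 19.6% between classes and 8.51% in positive against negative cells. For 4-fold changes these were 94.9%, 90.6% and 73.3%. A gene that was not called may therefore still differ. Sequences of the receptors were not used here. Some items, among them part of the genotype shared by all groups, are not reported here.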

Additional observations from a re-analysis of the deposited data

Results flagged for a closer look

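Among 36 sets of 4 technical libraries (6 genes, 3 stages, 2 sorts), 5 held a library far above the other 3, where chance gives about 1 in 20 for values on a continuous scale. That rate does not apply to 3 of the sets, in which the other libraries were at 0. In the early CD45+ sort, iCre was at 0.899 CPM (3 UMIs) in library L04D and at 0 in the others, and Erbb2 was at 0.710 CPM (3 UMIs) in L04B and at 0 in the others. Erbb4 was at 13.4 CPM (5 UMIs) in L04A, a library of 136 cells, against 0 to 1.199 CPM. In the early CD45- sort, iCre was at 0.920 CPM (2 UMIs) in T04C and at 0 in the others. These 4 rest on 2 to 5 UMIs. In the medium CD45+ sort, Erbb3 was at 19.3 CPM (43 UMIs) in L28D against 11.3 to 12.4 CPM.

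The receptors went opposite ways in different tumors in 3 cases, and these differences were not tested. Erbb3 in hsEGFR-positive over negative cells had a log2 ratio of 0.59 in the medium and -0.33 in the late tumor. In the glioma or OPC-like class over oligodendrocyte-like cells, Erbb3 had log2 ratios of -0.86, 0.89 and -1.55 in the early, medium and late tumors, whose class cells lay mostly in clusters 17, 14 and 9, with cluster 14 found in the medium tumor alone. Erbb4 had 0.49, -0.49 and -1.15.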

How the results depend on the processing

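Of 134 recalculated fold changes, 104 kept direction and side of the threshold. In the sort comparison hsEGFR kept its direction but not its call without the block (-1.98) and with the highest 5% of doublet scores removed (-1.46). iCre did so without a filter (-2.39) and without the block (-2.38), and Egfr passed without TMM (-1.08). Leaving out tumors gave -2.73 to -1.22 for hsEGFR and -3.22 to -1.27 for iCre. In the comparison of positive and negative cells, 1131 genes became 77 with DESeq2, 42 in thinned cells, 5 without cluster 17 and 0 with edgeR without the block (843 higher and 878 lower at an unadjusted p under 0.05). iCre lost its call without the block (2.41), in thinned cells (0.99) and without cluster 17 (1.15). Egfr passed without TMM (-1.80), and Erbb3 with cluster 10 added (0.71). Without cluster 17, Erbb3 (-0.042) and Erbb4 (1.93) reversed, both uncalled. In the class comparison hsEGFR lost its call without the block (6.86) and without clusters 9, 14 and 24 (2.73). Egfr passed without TMM (1.73) and without the medium tumor (1.95), and Erbb3 without the medium tumor (-1.78), without a filter (-1.05), with classes given per cell (-0.99) and without clusters 9, 14 and 24 (-1.10). Erbb4 lost its call with DESeq2 (-0.91), without TMM (-0.40), without the block (-0.95), with classes given per cell (-0.77), with cluster 10 added (-1.34) and without clusters 9, 14 and 24 (-0.073). Leaving out tumors gave 0.74 to 1.95 for Egfr, -1.78 to -0.47 for Erbb3 and -1.29 to -0.58 for Erbb4. The cause was not tested, except that leaving out a tumor, cells or UMIs lowers the counts.

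Of 252 recalculated levels, 250 moved by less than 1 SD of the libraries. Most of these left out 1 of the 4 libraries that also set the SD. For them a move below 1 SD was largely fixed in advance, so the count is no test of stability. The count also says little where the SD exceeds the level, as for early CD45- hsEGFR (SD 8.77 CPM). That level went from 7.28 to 0.394 CPM with the highest 5% of doublet scores removed. Of 240 recalculated cluster levels, 53 were counted as moved, and of 108 recalculated shares, 33. Leaving out single libraries within clusters was chosen after seeing the data. With every deposited cell, the medium CD45- levels were 593 CPM for hsEGFR and 71.3 CPM for iCre. The share of glioma or OPC-like cells with hsEGFR was 58.8% in the medium tumor when thinned, and 62.5% and 82.0% in the medium and late tumors with classes given per cell. In thinned oligodendrocyte-like cells it was 0%, 0.659% and 0.675%. Without TMM the median of all genes shifted to -0.40 in the sort and 0.53 in the class comparison, and the split of higher and lower genes became 2589 to 6559 (from 3759 to 4744) and 4073 to 1288 (from 2271 to 2271). For positive over negative cells it became 390 to 676 (from 645 to 486). Leaving out a tumor there left no residual degrees of freedom and no test. Marker classes, pooled animals and 1 tumor per stage limit all of these values. Counts below about 20 UMIs, as for Erbb2, limit what can be told from their absence.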
